A study of Rattus norvegicus with 28 samples.

Results

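The left ventricle of the untreated Sprague Dawley (SD) rat was described from the 8 arrays that the labels give as SD heart without treatment, out of 28 arrays in the study. The SD rats were male wild-type animals, assigned at 3.5 weeks of age and killed at 7 weeks of age, and the labels record no gavage for them. Vehicle dTGR (8 arrays) and treated dTGR (12 arrays) were male rats of the same age that carry both a human angiotensinogen and a human renin transgene on the Sprague Dawley background, a model of angiotensin-dependent hypertension. Vehicle dTGR received the carrier by oral gavage once daily from 4 weeks of age, and treated dTGR received the soluble guanylate cyclase stimulator BAY 41-8543 in it at 3 mg/kg/day. The treatment length in the study design, 4 weeks, is longer than these ages allow. Each animal gave 1 array of whole left ventricle, from 250 ng of total RNA. Genotype cannot be told apart from gavage or from cohort, and the human transgenes themselves are not read by these rat probes.

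The deposited value is 1 normalized intensity per probe and array. After log2, each gene was represented by its brightest probe among those annotated to a single symbol, giving 14557 genes. Of these, 11492 had a mean log2 intensity over all 28 arrays above 5.65, the 30th percentile of all probes, and only these entered the counts of spread and the tests. The 8 SD arrays had median intensities between 100.4 and 104.4, correlated with each other at 0.974 to 0.982 across genes, and held no identical pair. Precision is set by having 8 SD hearts, and p-values cover only the variation between the hearts as labelled, which may be partly technical. The expression rank of a gene is the percentile of its mean probe intensity among the 14557 genes in SD hearts. Probes differ in affinity, so a rank describes probes and gives no ratio between genes. With the mean of all probes of a gene in place of the brightest, ranks shifted by up to 40.8 percentiles and by over 5 for 126 genes. Of the 14557 genes, 234 have several probes. In bulk tissue, fewer cells of a type and less RNA per cell cannot be told apart.

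The ventricle works by continuous contraction, and its muscle cells are filled with sarcomeres and with mitochondria that burn mainly fatty acids. Adult rodent ventricle uses the fast alpha myosin heavy chain, whereas the slow beta chain, skeletal actin and the natriuretic peptides belong to the fetal programme and return under load. Atrial natriuretic peptide is made mainly by the atria after birth, and B-type natriuretic peptide by both chambers. Both peptides lower blood volume and pressure through guanylate cyclase receptors.

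The probes with the highest intensity in SD hearts belonged to oxygen storage, contraction, calcium uptake and ATP synthesis. Mb, which encodes the oxygen-binding protein myoglobin, ranked first of 14557 genes, with values from 16.79 to 16.91 and a mean of 16.87 ± 0.04 (standard deviation, n = 8, log2 intensity, as for every level given here). Cardiac troponin T (Tnnt2, 16.38 ± 0.03), the small heat shock protein Hspb6 (16.32 ± 0.07) and alpha myosin heavy chain (Myh6, 16.30 ± 0.08) followed. The 25 brightest genes also held the ventricular light chain Myl3 (16.19), the sarcoplasmic reticulum calcium pump Atp2a2 (16.17), the ATP synthase subunits Atp5mk, Atp5f1b and Atp5f1d, the chaperone Cryab, the stretch-responsive ankyrin repeat protein Ankrd1 (15.96), and desmin (Des). They further held the mitochondrial enzymes Mdh2 and Idh2, the ADP/ATP carrier Slc25a4, the fatty acid carrier Fabp3, lipoprotein lipase (Lpl), muscle creatine kinase (Ckm), and the ribosomal genes Rpl41 and Rps29. Ndrg2, Crip2, Ndufc2, Phyh and B2m completed the 25. Their levels hardly moved from heart to heart, with standard deviations between 0.03 and 0.12 over the 25 genes.

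**Figure D1:**
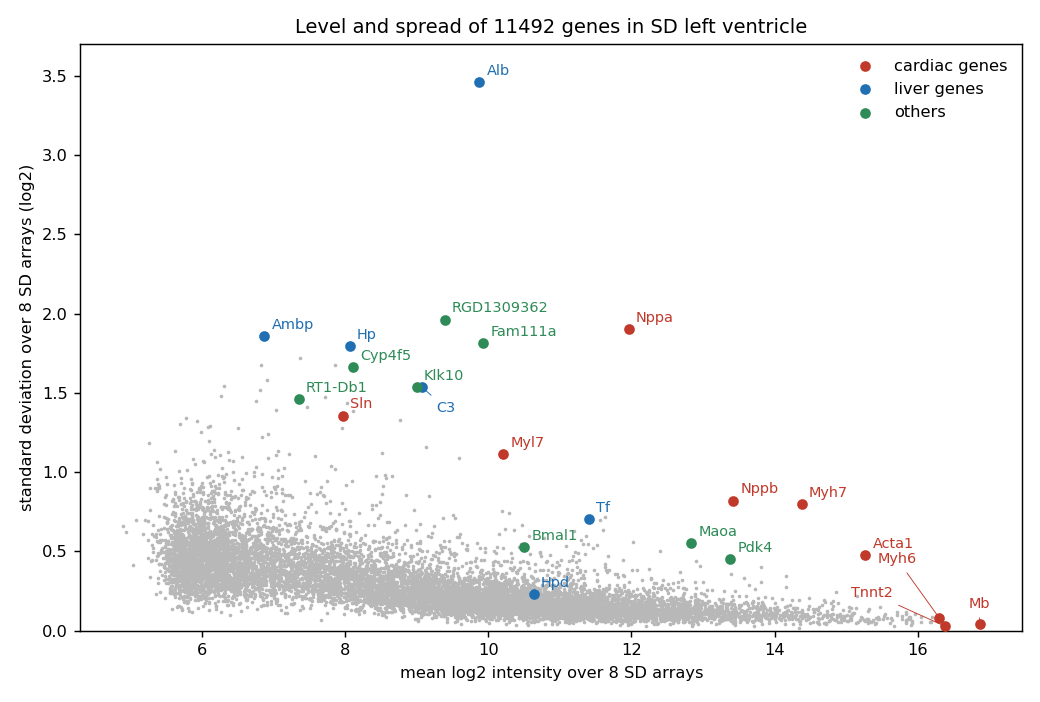
Each point is 1 of the 11492 genes above the filter: the horizontal axis is its mean log2 intensity over the 8 SD arrays and the vertical axis is its standard deviation over them, in log2 units. The bright contractile genes Mb, Tnnt2 and Myh6 lie at the bottom right, whereas Alb (3.46) and Nppa (1.90) lie far above other genes of like level.

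Contractile genes of the adult ventricle were bright and steady. The 13 members with a probe, of 22 listed, had a median rank of 99.8, beside 50 over all genes. Their median standard deviation was 0.07, beside 0.25 over all genes and 0.11 over the brightest 10% of filtered genes. None had a standard deviation over 0.5, beside 13.2% of filtered genes. Cardiac troponin I (Tnni3) lay between 15.24 and 15.38, the Z-disc protein Actn2 between 15.63 and 15.72, and troponin C (Tnnc1) at 15.04 ± 0.15. Actn2 and Tnnt2 were also among the 5 genes with the smallest spread among the brightest 10% of filtered genes, together with Rack1, Prpf19 and Synj2bp. The list of fetal or skeletal contractile genes was mixed, with 11 of 18 genes measured at a median rank of 63.9. Ankrd1 (15.96 ± 0.11), skeletal actin (Acta1, 15.27 ± 0.48), beta myosin heavy chain (Myh7, 14.38 ± 0.80), Nppb (13.42 ± 0.82) and the tropomyosin Tpm3 (12.62 ± 0.18) ranked above the 90th percentile. The slow and fast skeletal troponins Tnnt1, Tnnt3 and Tnnc2 ranked at 32.8, 45.2 and 3.33. Myl2, Actc1 and Ttn were not analysed here.

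Calcium handling genes were also bright, with 6 of 9 measured members above the 90th percentile and a median rank of 96.9. Their median standard deviation was 0.11, beside 0.11 over the brightest 10% of filtered genes. Phospholamban (Pln, 15.61 ± 0.05), which restrains the calcium pump, and cardiac calsequestrin (Casq2, 15.54 ± 0.11), which stores calcium in the sarcoplasmic reticulum, were the brightest after Atp2a2. Ion channel genes spread over a wider range of ranks, with a median of 86.3 over 14 genes. The gap junction gene Gja1 ranked at 99.2 and the potassium channel gene Kcna4 at 54.5. Scn4b, a sodium channel beta subunit, was the 1 member with a standard deviation over 0.5 (0.63), with values from 10.02 to 12.05.

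Genes of oxidative metabolism ranked almost as high as the contractile genes. Of 29 fatty acid oxidation genes, 25 ranked above the 90th percentile, with a median of 98.8, and of 21 genes of the citric acid cycle and pyruvate entry, 20 did, with a median of 99.3. Oxidative phosphorylation had 36 of 39 genes above the 90th percentile, with a median rank of 99.1. Its exceptions were Ndufa2 (75.5), the ATP synthase gamma subunit Atp5f1c (36.3) and the cytochrome oxidase subunit Cox6b1 (0.12). The probes of Atp5f1c and Cox6b1 lay at 6.38 ± 0.77 and 4.19 ± 0.46. Whether these 2 probes measure their transcripts was not tested. Glycolysis and glucose transport had 11 of 13 genes above the 90th percentile, with the heart lactate dehydrogenase Ldhb (15.48) and glycogen phosphorylase Pygm (15.37) brightest. The median standard deviation was 0.12 for fatty acid oxidation, 0.08 for the citric acid cycle, 0.11 for oxidative phosphorylation and 0.12 for glycolysis. It was 0.11 over the brightest 10% of filtered genes. In these 4 lists, Atp5f1c was the only gene with a standard deviation over 0.5.

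Fasting-responsive genes, many of them targets of the fatty acid receptor PPAR alpha, were less uniform. The list had a median rank of 92.1 over 14 genes. Uncoupling protein 2 (Ucp2, 14.67) and Txnip (13.70) were its brightest. Pdk4, which inhibits pyruvate dehydrogenase, had 13.38 ± 0.45. Angptl4, an inhibitor of lipoprotein lipase, had 6.54 ± 0.85 and the mTOR inhibitor Ddit4 had a standard deviation of 0.60.

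Among 30 pairs of muscle or adult isoforms with their alternatives, 13 had a probe for both genes. In each of the 13 the adult, muscle or heart form had the higher rank, which describes probe intensity and not a ratio of transcripts. Muscle carnitine palmitoyltransferase Cpt1b ranked at 99.3 and the liver form Cpt1a at 89.9, and the heart subunit Cox6a2 at 99.7 beside 97.5 for the ubiquitous Cox6a1. The glucose transporter Slc2a4, which responds to insulin, ranked at 95.9 and Slc2a1 at 85.9. The pairs differed in how constant the second gene was between hearts. The within-array difference between Ckm and Ckb had a standard deviation of 0.13, whereas that between Myh6 and Myh7 had 0.86 with a range of 2.42, and that between Pln and sarcolipin (Sln) had 1.37 with a range of 4.27.

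**Figure D2:**
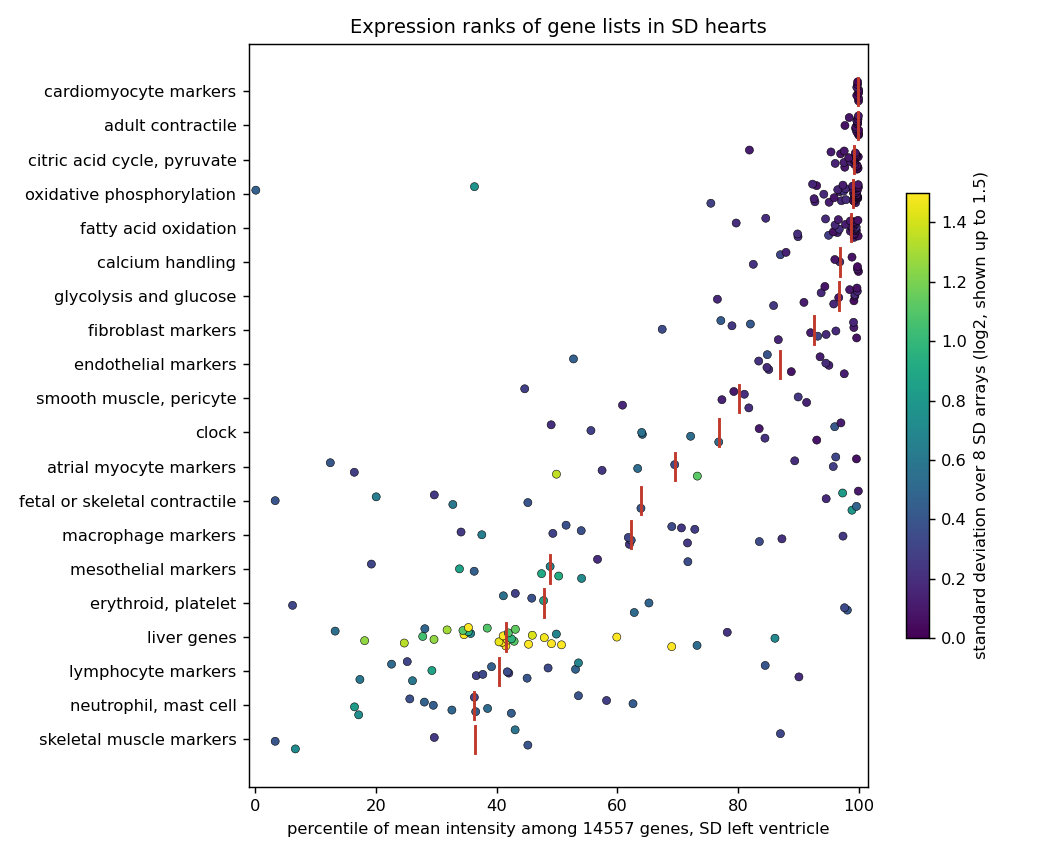
Each point is a gene of the list named on the left, placed by the percentile of its mean intensity among 14557 genes in SD hearts and coloured by its standard deviation over the 8 arrays (log2, colour shown up to 1.5). Red bars are list medians, from 99.9 for cardiomyocyte markers to 36.3 for neutrophil and mast cell markers. The liver genes, a list added after these values were seen, carry the large standard deviations. The other lists were chosen with earlier results of these data known.

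The 8 measured cardiomyocyte markers of 11 ranked at 99.7 or higher. Most of them, such as Myh6, Tnnt2 and Actn2, are shared by atrial and ventricular muscle, so they show heart muscle and do not tell the chambers apart. Markers of other resident cells ranked lower but were well represented. Fibroblast markers had a median rank of 92.6 over 12 genes, led by decorin (Dcn, 15.29 ± 0.08), Dpt and Ogn. Endothelial markers had a median rank of 87.0 over 10 genes, led by VE-cadherin (Cdh5, 13.55 ± 0.13), and smooth muscle and pericyte markers had 80.2 over 8, led by Pdgfrb. None of these 30 markers had a standard deviation over 0.5, beside 13.2% of filtered genes. Lymphatic endothelial markers had a median rank of 76.9 over 7 genes.

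Immune and blood markers ranked lower still. Macrophage markers had a median rank of 62.3 over 15 genes, and lysozyme (Lyz2, 13.45 ± 0.25) alone exceeded the 90th percentile. Lymphocyte markers had a median rank of 40.5 over 16 genes. Of these, Cd4 (11.89 ± 0.20) was highest and the T cell receptor chain Cd3e (17.4) lowest, and Cd4 is also carried by rat macrophages. Neutrophil and mast cell markers had a median rank of 36.3 over 13 genes. The haemoglobin genes Hba-a3 (13.81 ± 0.41) and Hbb-b1 (13.58 ± 0.33) ranked at 98.1 and 97.7, while the other 7 erythroid and platelet markers ranked at 65.2 or lower. Probes of haemoglobin genes were not checked for cross-hybridization between family members.

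Markers of skeletal muscle and fat ranked low, with exceptions, and atrial markers covered a wide range. Skeletal muscle markers had a median rank of 36.4 over 6 genes. The fast myosin Myh4 ranked at 6.67, whereas the skeletal calsequestrin Casq1 ranked highest of them at 87.0. Adipocyte markers had a median rank of 40.2 over 11 genes, with perilipin (Plin1) at 40.2 and adiponectin (Adipoq) at 23.9, whereas the lipid droplet gene Cidea ranked at 98.6 (14.15 ± 0.28). Atrial myocyte markers had a median rank of 69.5 over 11 genes, above that of all genes, and 3 of them exceeded the 90th percentile. These were Pam (99.6), an enzyme that amidates peptides, the secreted Wnt modulator Dkk3 (96.2) and the potassium channel gene Kcnj3 (95.8). Bmp10 (16.4) and Mybphl (12.5) lay below the filter, while Myl7, the atrial light chain, had 10.21 ± 1.12 and Sln, which regulates the calcium pump in atria, had 7.96 ± 1.36.

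The hearts differed from each other in a small set of genes. The median standard deviation over the 11492 genes was 0.25, with quartiles of 0.15 and 0.40 and a 99th percentile of 0.91. A standard deviation over 0.5 was found for 1521 genes (13.2%) and over 1 for 70 genes (0.609%). Spread fell with level: its median was 0.45 in the dimmest 10% of genes and 0.11 in the brightest 10%, and 6 of the 70 genes lay above the median level. Nppa was one of the 6. The first 3 principal components of the 8 arrays held 20.0%, 16.8% and 14.9% of the variance, and the first had replicates 2, 5, 6 and 8 on one side and replicates 1, 3, 4 and 7 on the other.

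**Figure D3:**
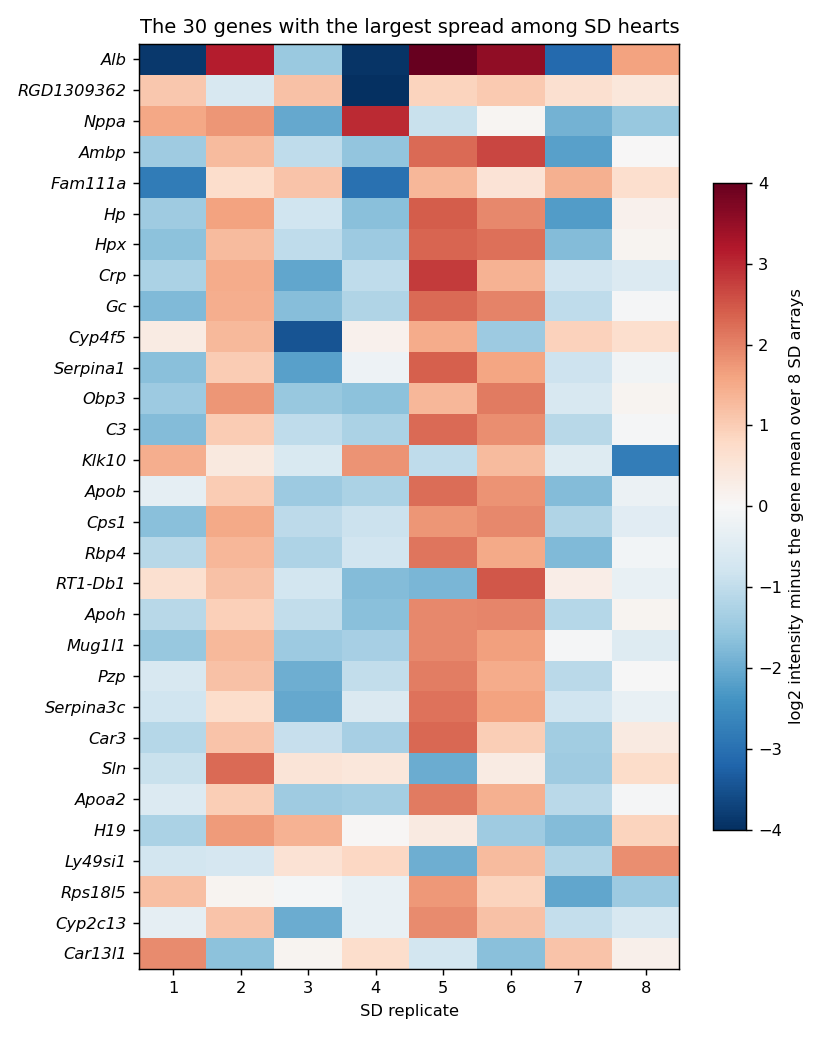
Colour shows log2 intensity minus the mean of the gene over the 8 SD arrays, for the 30 genes with the largest standard deviation (rows, largest at the top) in SD replicates 1 to 8 (columns). Alb and most other liver genes are high in replicates 2, 5 and 6, Nppa is high in replicates 1, 2 and 4, and RGD1309362 and Cyp4f5 are far below their mean in 1 array each.

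Nppa, which encodes atrial natriuretic peptide, ranked 3 of 11492 genes by spread. Its values in SD replicates 1 to 8 were 13.50, 13.73, 9.92, 14.95, 11.07, 12.03, 10.06 and 10.43, with a mean of 11.96 ± 1.90. Replicates 1, 2 and 4 were high, replicates 3, 7 and 8 were low, and replicates 5 and 6 lay between. The widest gap between neighbouring hearts was 29.2% of the range, so the hearts were treated as 1 series and not as separate clusters. Nppa had a median of 11.55 in SD hearts, against 15.70 (15.30 to 16.20) in vehicle dTGR hearts and 15.77 (14.55 to 16.26) in treated dTGR hearts. No SD heart reached the vehicle range, and SD replicate 4 alone lay within the treated range.

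Other natriuretic and fetal genes varied less. Nppb, which encodes B-type natriuretic peptide, had 14.23, 13.46, 12.20, 14.47, 12.60, 14.01, 13.60 and 12.77 in SD replicates 1 to 8. Replicates 4 and 1 were the highest and replicate 3 the lowest, while replicate 2, high in Nppa, lay below replicates 6 and 7. Myh7 had 15.16, 14.75, 14.43, 15.23, 13.51, 14.69, 12.91 and 14.37, with replicates 5 and 7 apart at the low end. Acta1 had 15.82, 14.94, 14.87, 15.93, 15.27, 15.58, 15.17 and 14.57, and every SD heart lay below all vehicle dTGR hearts (16.39 to 16.75) and all treated dTGR hearts (16.39 to 16.76). Of the receptors, the guanylate cyclase Npr1 had 9.46 ± 0.19, and the clearance receptor Npr3, which removes the peptides, had 9.51 ± 0.73.

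The 250 bases before the start of Nppa, Nppb and Acta1 are shown because these fetal genes varied between SD hearts (RefSeq, GRCr8, 5′ to 3′ on the strand of each gene). Nppa lies on the plus strand at chr5:163711934-163712183, Nppb on the plus strand at chr5:163699758-163700007, and Acta1 on the minus strand at chr19:68784195-68784444. Capitals mark matches on either strand to the TATA box, to sites of GATA factors, to the site of TEAD factors and to the CArG box of serum response factor. The TATA box was searched as TATAAA. The GATA site was searched as TGATAA, and also as the variant AGATAA. The TEAD site was searched as CATTCC.
Nppa: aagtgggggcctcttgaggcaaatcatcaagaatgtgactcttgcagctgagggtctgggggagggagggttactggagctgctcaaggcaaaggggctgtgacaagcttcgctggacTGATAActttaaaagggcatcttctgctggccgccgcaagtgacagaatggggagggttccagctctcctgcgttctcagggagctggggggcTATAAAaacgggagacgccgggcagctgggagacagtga
Nppb: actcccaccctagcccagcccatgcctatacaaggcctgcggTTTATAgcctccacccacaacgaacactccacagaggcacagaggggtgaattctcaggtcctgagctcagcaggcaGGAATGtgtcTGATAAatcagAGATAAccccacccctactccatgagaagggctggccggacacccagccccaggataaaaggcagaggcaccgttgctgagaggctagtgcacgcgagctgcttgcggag
Acta1: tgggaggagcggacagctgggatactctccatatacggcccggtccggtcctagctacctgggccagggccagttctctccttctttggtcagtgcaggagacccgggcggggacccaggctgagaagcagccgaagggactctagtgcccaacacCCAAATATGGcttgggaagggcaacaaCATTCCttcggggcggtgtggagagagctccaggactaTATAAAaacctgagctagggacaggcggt
Nppb and Nppa are neighbours, with starts 12176 bases apart. TGATAA stands at -132 to -127 before Nppa and at -121 to -116 before Nppb, and 7.97% of 33469 rat promoter windows of the same length hold it. TATAAA stands at -39 to -34 before Nppa and at -29 to -24 before Acta1 (12.9% of windows). CATTCC stands at -67 to -62 before Acta1 and, on the other strand, at -131 to -126 before Nppb (12.1% of windows). The CArG box, at -94 to -85 before Acta1, is held by 1.5% of windows. AGATAA stands before Nppb alone of the 3, at -110 to -105 (10.3% of windows), and TATAAA on its other strand at -208 to -203. These matches are descriptions of the letters in the window.

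To find what varied with Nppa, each gene was regressed on Nppa over the 8 SD hearts with limma, and 1 of 11491 genes (0.0087%) passed at an adjusted p under 0.05, with 640 at an unadjusted p under 0.05. That gene was Maoa, which encodes monoamine oxidase A, the mitochondrial enzyme that oxidises serotonin and noradrenaline. Maoa had 13.09, 13.62, 12.42, 13.66, 12.29, 12.61, 12.40 and 12.60 in SD replicates 1 to 8. The 3 hearts with high Nppa were the 3 with high Maoa, and the other 5 lay between 12.29 and 12.61. Maoa rose by 0.267 ± 0.035 log2 units (standard error) per log2 unit of Nppa (limma, adjusted p = 0.0383). The call was lost in 10 of 19 alternatives, among them leaving out replicate 1, 2, 3, 4, 7 or 8 and leaving out the intensity trend, and the adjusted p ranged from 0.00675 to 0.913.

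The same relation was fitted in hearts that had not been used to find it. In treated dTGR, Maoa had a slope of 0.511 ± 0.115 on Nppa (limma, p = 0.00028, adjusted p = 0.0893 over 11491 genes). The widest gap in Nppa between neighbouring treated hearts was 45.5% of the range, so slopes there lean on few hearts. In vehicle dTGR, its slope was 0.309 ± 0.268 (limma, p = 0.274), where Nppa itself spanned only 0.90 log2 units. The slope did not pass a test of difference between SD and treated dTGR (-0.244 ± 0.151, limma, adjusted p = 0.999). Maoa had a median of 12.61 in SD hearts, against 13.47 in vehicle dTGR hearts and 13.60 in treated dTGR hearts.

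**Figure D4:**
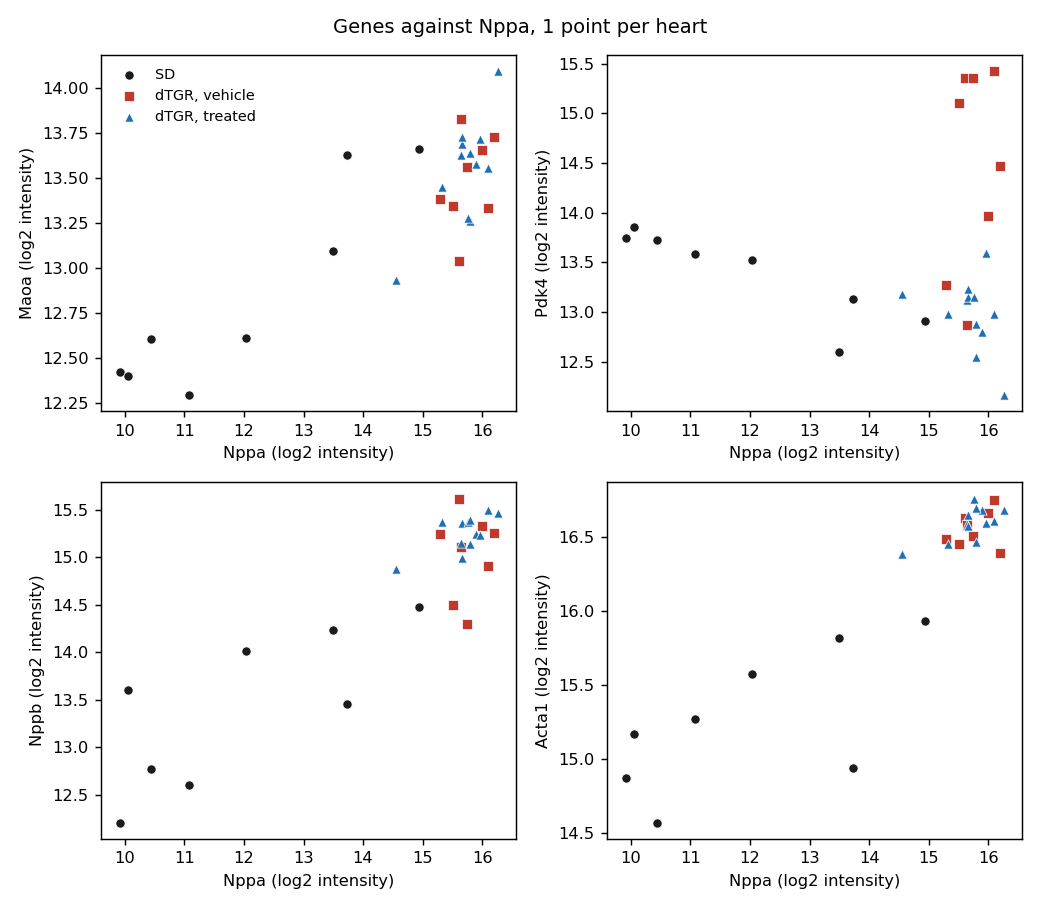
Each panel plots the log2 intensity of 1 gene (Maoa, Pdk4, Nppb or Acta1) against that of Nppa, with 1 point per heart: SD black circles, vehicle dTGR red squares, treated dTGR blue triangles. In SD hearts the fitted slopes on Nppa are positive for Maoa, Nppb and Acta1 and negative for Pdk4. Only the Maoa slope passed over all genes, and single hearts depart from the slopes of Nppb and Acta1. The SD hearts cover an Nppa range from 9.92 to 14.95 that vehicle dTGR hearts do not share.

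The genes next in order did not pass the test over all genes, and their values are given as a description. Pdk4 had 12.60, 13.13, 13.74, 12.91, 13.58, 13.52, 13.86 and 13.73 in SD replicates 1 to 8, so that the 3 hearts with high Nppa held its 3 lowest values. Its slope on Nppa was -0.214 ± 0.033 (limma, adjusted p = 0.103), and it passed in 1 of 19 alternatives. Uncoupling protein 3 (Ucp3), another fasting-responsive mitochondrial gene, had 9.77, 9.76 and 9.81 in replicates 1, 2 and 4 and values from 10.30 to 10.98 in the others (slope -0.210 ± 0.048, limma, adjusted p = 0.625). In vehicle dTGR hearts the Pdk4 slope was 0.938 ± 0.973, and in treated dTGR hearts it was -0.304 ± 0.188, neither below an unadjusted p of 0.05 by limma.

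The positive slopes included those of the fetal genes. Nppb had a slope of 0.330 ± 0.077 (limma, adjusted p = 0.625), Myh7 one of 0.312 ± 0.078 (limma, adjusted p = 0.696) and Acta1 one of 0.171 ± 0.052 (limma, adjusted p = 0.793). Myh6, the adult partner of Myh7, had a slope of -0.037 ± 0.015. In treated dTGR hearts the slopes were 0.303 for Nppb, 0.690 for Myh7 and 0.181 for Acta1, with unadjusted p of 0.00352, 0.00198 and 0.0157 by limma and none below an adjusted p of 0.05. Over the fetal or skeletal contractile list, 8 of 10 genes correlated positively with Nppa in SD hearts, beside 6420 of 11491 over all genes. The median r was 0.50, beside 0.07 over all genes. In vehicle dTGR hearts 6 of 10 were positive at a median r of 0.16, and in treated dTGR hearts 8 of 10 at 0.57. Outside the lists, the kallikrein-related peptidase Klk10 had values from 6.23 to 10.81 and a slope of 0.624 ± 0.144, and Fam111a had 7.13 and 6.94 in replicates 1 and 4 and 10.48 to 11.35 in the other 6 hearts. Fam111a had a slope of -0.758 ± 0.160 (limma, adjusted p = 0.625), and its values in vehicle dTGR (10.56 to 11.04) and treated dTGR (10.46 to 11.04), where Nppa was high, lay within the range of those 6 SD hearts.

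Rank and product-moment correlations gave no call among 11491 genes in SD hearts, with 626 genes at an exact permutation p under 0.05 and a smallest adjusted p of 0.641. Elastin (Eln), a fibre protein of the matrix, had r = -0.96 (exact permutation p = 0.00012, adjusted p = 0.641), rho = -0.98 (exact permutation p = 0.0004, adjusted p = 0.76) and r = -0.99 without replicates 2 and 4, the 2 hearts farthest from the median Nppa. Its values ran only from 9.65 to 10.39. Maoa had r = 0.92 (exact permutation p = 0.00211, adjusted p = 0.817) and rho = 0.83 (exact permutation p = 0.0154, adjusted p = 0.897), and r = 0.83 without those 2 hearts. Pdk4 had r = -0.89 (exact permutation p = 0.00397, adjusted p = 0.817) and rho = -0.90 (exact permutation p = 0.00456, adjusted p = 0.897), and r = -0.93 without them. The matrix gene Thbs4 had r = 0.70 (exact permutation p = 0.0587, adjusted p = 0.909) and rho = 0.38 (exact permutation p = 0.36, adjusted p = 0.979). Its relation rested on replicates 2 and 4, at 9.26 and 9.22 beside 6.95 to 7.62 in the other hearts, and r was -0.38 without them.

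Most blood genes and fatty acid oxidation genes had negative correlations with Nppa in SD hearts, and none passed the test. Over all genes, 6420 of 11491 had a positive r, at a median of 0.07. The genes of a list share the same 8 hearts, so counts of signs are descriptions and no test. Of 8 erythroid and platelet markers 6 had a negative r, with a list median of -0.70, against a median of 0.56 in vehicle dTGR hearts and 0.31 in treated dTGR hearts. Hba-a3 had r = -0.76 (exact permutation p = 0.0283, adjusted p = 0.89) and rho = -0.55 (exact permutation p = 0.171, adjusted p = 0.953) with Nppa, and its 2 lowest hearts were replicates 2 (13.12) and 4 (13.31). Without these 2, its r was -0.35. The mean level of the 8 markers ran from 8.88 to 9.80 in SD hearts, from 8.25 to 9.48 in vehicle dTGR hearts and from 7.92 to 9.14 in treated dTGR hearts, and its part in the slopes on Nppa was not tested. Fatty acid oxidation had 26 of 29 genes with a negative r at a median of -0.35. Its median r was -0.28 in vehicle dTGR hearts and -0.51 in treated dTGR hearts. Macrophage markers had 13 of 15 genes with a positive r at a median of 0.37, against 0.15 in vehicle dTGR hearts and 0.45 in treated dTGR hearts. Atrial markers had a median r of 0.08 over 9 genes, with Myl7 at 0.51 and 0.13 without replicates 2 and 4.

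The genes that followed Nppa in treated dTGR hearts were compared with SD hearts by a test of the slopes. In treated dTGR hearts 20 genes (0.174%) passed for a slope on Nppa, 16 positive and 4 negative, and in vehicle dTGR hearts none passed by limma, with 301 at an unadjusted p under 0.05. Of the 2 differences of slopes, SD minus vehicle dTGR gave 0 genes (551 at an unadjusted p under 0.05) and SD minus treated dTGR gave 1 gene (0.0087%), Xirp2. Xirp2 encodes a protein that binds actin at the intercalated disc. Its slope was -0.0055 ± 0.0201 in SD hearts (13.71 to 13.97), against 0.789 ± 0.122 in treated dTGR hearts (14.22 to 15.74), a difference of -0.794 ± 0.131 (limma, adjusted p = 0.0163).

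A set of genes varied with albumin in SD hearts. Alb, the main plasma protein made by the liver, had the largest spread of all genes in SD hearts, at 6.002, 13.00, 8.40, 5.96, 13.94, 13.44, 6.76 and 11.50 in replicates 1 to 8. Replicates 2, 5, 6 and 8 were high, replicates 1, 4 and 7 were near the filter level, and the widest gap was 38.8% of the range. Alb had a median of 9.95 in SD hearts, against 10.27 (6.53 to 13.77) in vehicle dTGR hearts and 11.12 (6.75 to 14.12) in treated dTGR hearts, so all 3 groups overlapped. With Nppa, Alb had r = -0.20 (exact permutation p = 0.639, adjusted p = 0.985) and rho = -0.19 (exact permutation p = 0.665, adjusted p = 0.987), and r = -0.09 without replicates 2 and 4.

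The 250 bases before the start of Alb are shown because Alb leads this set (minus strand, chr14:17906980-17907229, RefSeq, GRCr8). Capitals mark GTTAAT, part of the site of the liver factor HNF1, which stands at -82 to -77 and is held on either strand by 6.45% of the windows.
Alb: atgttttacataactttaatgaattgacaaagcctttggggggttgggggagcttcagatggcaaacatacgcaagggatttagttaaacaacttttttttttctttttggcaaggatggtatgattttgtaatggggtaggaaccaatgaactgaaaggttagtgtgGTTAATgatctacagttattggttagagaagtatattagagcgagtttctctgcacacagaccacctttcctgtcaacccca

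Regression on Alb gave 20 genes (0.174%) in SD hearts, 18 positive and 2 negative, beside 790 at an unadjusted p under 0.05 (limma). Haptoglobin (Hp), which binds free haemoglobin, had 6.63, 9.66, 7.27, 6.39, 10.48, 9.99, 5.84 and 8.24 in replicates 1 to 8. Its slope on Alb was 0.503 ± 0.043 (limma, adjusted p = 1.5e-04), and its 4 highest hearts were the 4 with high Alb. Hemopexin (Hpx), which binds haem, had a slope of 0.481 ± 0.045, the complement protein C3 one of 0.425 ± 0.040, carbonic anhydrase 3 (Car3) one of 0.385 ± 0.040 and the protease inhibitor Ambp one of 0.510 ± 0.056, each with an adjusted p under 0.001 by limma. Apoh, the vitamin D carrier Gc, the retinol carrier Rbp4, Obp3, Cps1, Azgp1, Apoa2, Afm, Itih3, Mug1l1, Fgg, Apob and Pzp were the other positive calls. The negative ones were Rarres1 (-0.171 ± 0.030) and Car13l1 (-0.329 ± 0.058), both with an adjusted p of 0.0341 by limma (0.0174% of genes). Hp, Hpx, C3, Car3, Ambp and Apoh kept their call in all 16 alternatives.

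The same slopes were fitted in the other groups. All 20 genes had the same sign in vehicle dTGR and in treated dTGR hearts. Of the 20, 14 had an unadjusted p under 0.05 in vehicle dTGR hearts, where 3.05% of all genes did, and 18 had one in treated dTGR hearts, where 3.84% of all genes did. Rarres1 and Car13l1 had unadjusted p of 0.637 or more in both dTGR groups by limma. In treated dTGR hearts 12 genes passed over all genes (0.104%), 11 of them positive (0.0957%) and 8 of them shared with SD, and in vehicle dTGR hearts none did by limma, with 351 at an unadjusted p under 0.05 and Hp at 0.627 ± 0.083 with an adjusted p of 0.122. No slope on Alb differed between SD and vehicle dTGR (755 genes at an unadjusted p under 0.05) or between SD and treated dTGR (394 genes), both by limma.

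A list of 47 liver genes, drawn up after these values were seen and therefore not evidence of its own, put numbers on the set. Of its members 33 had a probe, 31 passed the filter, and 23 of the 31 had a standard deviation over 1, so that this list alone supplied 23 of the 70 such genes. Its median standard deviation was 1.29, beside 0.25 over all genes. The mean level of the 31 genes in SD replicates 1 to 8 was 6.34, 8.27, 6.34, 6.38, 9.12, 8.78, 6.31 and 7.17. Replicates 5, 6, 2 and 8 were highest, in that order. It ran from 6.31 to 9.12 in SD hearts, from 6.29 to 8.86 in vehicle dTGR hearts and from 6.33 to 9.17 in treated dTGR hearts. Of its 14 genes that passed with Alb, all rose with it. The tyrosine-degrading enzyme Hpd had 10.64 ± 0.23 in SD hearts, and the iron carrier transferrin (Tf) had 11.40 ± 0.71, above the 95th percentile of standard deviations over all genes (0.65). Cardiomyocyte markers had a mean level between 15.902 and 15.996 in every SD heart. Whether liver RNA reached these samples was not tested.

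**Figure D5:**
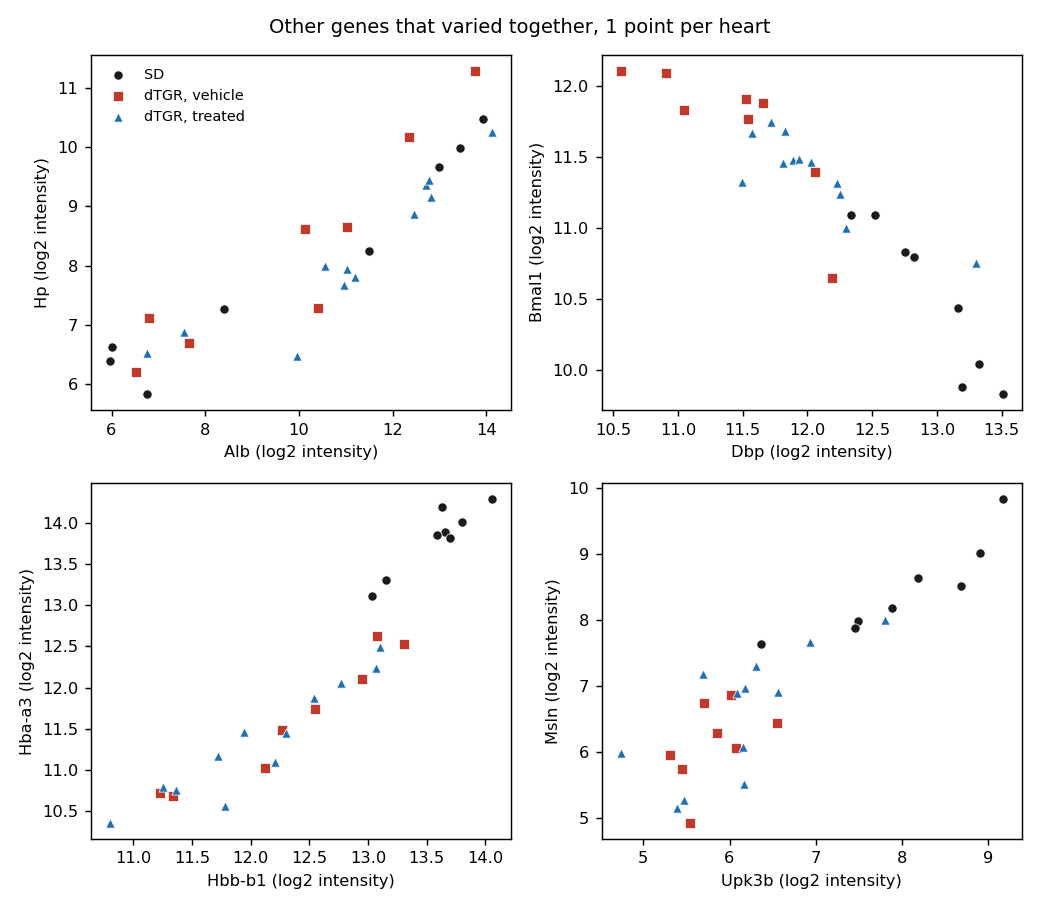
Each panel plots 1 gene against another in log2 intensity, with 1 point per heart: Hp against Alb, Bmal1 against Dbp, Hba-a3 against Hbb-b1, and Msln against Upk3b, with SD black circles, vehicle dTGR red squares and treated dTGR blue triangles. Hp and Alb span like ranges in all 3 groups, whereas for the other 3 pairs most SD hearts lie at one end.

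Some genes of the circadian clock also varied between SD hearts. Dbp, a transcription factor that is driven by the clock, had 12.75, 13.19, 13.16, 13.51, 12.82, 12.52, 12.34 and 13.32 in SD replicates 1 to 8. Bmal1, which encodes the activator of the clock, had 10.83, 9.88, 10.44, 9.83, 10.80, 11.09, 11.09 and 10.04. Hearts with high Dbp thus had low Bmal1, and Bmal1 was the 1 gene of 11491 (0.0087%) that passed for a slope on Dbp (-1.22 ± 0.16, limma, adjusted p = 0.0363). Its call was lost in 6 of 9 alternatives. The period genes, repressors of the clock, had positive slopes that did not pass: 1.24 ± 0.22 for Per3 (limma, adjusted p = 0.252), 1.12 ± 0.22 for Per2 (limma, adjusted p = 0.439) and 0.986 ± 0.262 for Per1 (limma, adjusted p = 0.929). In hearts not used to find it, the Bmal1 slope was -0.690 ± 0.173 in vehicle dTGR (limma, p = 0.00223, adjusted p = 0.736) and -0.506 ± 0.098 in treated dTGR (limma, p = 5.8e-05, adjusted p = 0.334). The labels do not give the hour at which each heart was taken. Bmal1, Per1, Per2 and Per3 were the 4 of 11 clock genes (36.4%) with a standard deviation over 0.5 in SD hearts, beside 13.2% of filtered genes. The median standard deviation of the list was 0.28, beside 0.25 over all genes, and Clock itself had 12.31 ± 0.08.

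Genes of the mesothelium, the cell layer that covers the heart, were regressed on Upk3b, a uroplakin gene of these cells, and none passed the test. Upk3b had 8.19, 6.37, 8.90, 8.69, 9.16, 7.88, 7.48 and 7.45 in SD replicates 1 to 8, with replicate 5 highest and replicate 2 lowest. Mesothelin (Msln), a surface protein of these cells, ran from 7.64 in replicate 2 to 9.83 in replicate 5. Slopes on Upk3b were 0.696 ± 0.129 for Msln, 0.685 ± 0.130 for Upk1b and 0.839 ± 0.177 for Lrrn4, with adjusted p between 0.622 and 0.662 by limma. The other 5 measured genes of the list had slopes between -0.302 for Krt8 and 0.098 for Tbx18, with unadjusted p between 0.254 for Calb2 and 0.969 for Gpm6a by limma. None of 11491 genes passed in SD hearts by limma, and 582 had an unadjusted p under 0.05. In treated dTGR hearts the slopes were 0.879 for Msln, 0.742 for Upk1b and 0.821 for Lrrn4, with unadjusted p of 0.000863, 0.000725 and 0.00218 by limma, and none passed over all genes. In vehicle dTGR hearts none of 11491 genes passed by limma, with 347 at an unadjusted p under 0.05. Msln, Upk1b and Lrrn4 were not among the 5 genes with the strongest positive slopes there. This gives neither the size nor the sign of their slopes, so the relation is not shown for vehicle dTGR hearts. Msln had a median of 8.35 in SD hearts, against 6.17 in vehicle dTGR hearts and 6.90 in treated dTGR hearts.

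Haemoglobin genes also moved as a pair. Regression on Hbb-b1, used because Hbb has no probe of its own symbol, gave 1 gene (0.0087%) in SD hearts, Hba-a3 (1.15 ± 0.14, limma, adjusted p = 0.0188), and this call was lost in 4 of 9 alternatives. The same slope was 0.956 ± 0.095 in vehicle dTGR hearts (limma, adjusted p = 0.00219) and 0.889 ± 0.085 in treated dTGR hearts (limma, adjusted p = 1.8e-05). Hba-a3 had 13.12 to 14.28 in SD hearts, against 10.69 to 12.62 in vehicle dTGR hearts and 10.36 to 12.50 in treated dTGR hearts, with no overlap between SD and either. Regression on the atrial gene Myl7 or on the immediate early gene Fos gave 0 genes in SD hearts by limma, with 548 and 518 at an unadjusted p under 0.05.

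Some of the widest spreads came from 1 or 2 hearts. RGD1309362 had 4.76 in replicate 4 and 8.75 to 10.56 in the others, and its standard deviation of 1.96 fell to 0.63 without that array. Cyp4f5, a fatty acid hydroxylase gene, had 4.67 in replicate 3, 6.67 in replicate 6 and 8.29 to 9.61 in the others, against 9.19 to 10.70 in vehicle dTGR hearts and 9.63 to 10.18 in treated dTGR hearts. Its standard deviation of 1.66 fell to 0.98 without replicate 3. RT1-Db1, which encodes a class II histocompatibility chain, ran from 5.53 to 9.85 in SD hearts with a median of 7.33, against 10.01 to 11.26 in vehicle dTGR hearts and 10.23 to 11.89 in treated dTGR hearts. The ranges did not overlap, and RT1 probes were not checked for sequence differences between animals. The imprinted RNA H19 ran from 7.04 to 10.47, and Sln from 5.995 in replicate 5 to 10.22 in replicate 2.

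The spread of each gene was finally set against the spread among dTGR hearts by a limma test on absolute deviations from the group median. Between SD and vehicle dTGR 94 genes (0.818%) passed, 3 with the larger spread in SD hearts and 91 with the smaller. Nppa, which had been picked for its spread in SD hearts, had a standard deviation of 1.90 there against 0.31 in vehicle dTGR hearts, a difference in mean deviation of 1.44 ± 0.27. Since that spread chose the gene, its value is a description and no test. Nppa and Acta1 were also brighter in every vehicle dTGR heart than in any SD heart, and bright genes had small spreads in general. The part of level in these differences was not tested. Acta1 (0.303 ± 0.072, limma, adjusted p = 0.0365) and the amidase Nit2 (0.317 ± 0.076, limma, adjusted p = 0.0374) were the other genes with the larger spread in SD hearts. The Acta1 call was lost in 6 of 17 alternatives and the Nit2 call in 8 of 17. Among the 91, the 5 with the strongest evidence were Ube2ql1, the ubiquitin ligase Rnf111, the autophagy gene Gabarapl1, the glycolytic regulator Pfkfb3 and the amino acid transporter subunit Slc3a2. Pfkfb3 ran from 9.90 to 10.49 in SD hearts, against 9.35 to 12.27 in vehicle dTGR hearts. Slc3a2 ran from 12.08 to 12.47 in SD hearts, against 12.48 to 14.47 in vehicle dTGR hearts. Between SD and treated dTGR 1 gene passed by limma (0.0087%), again Nppa, and 451 genes had an unadjusted p under 0.05. Its difference in mean deviation was 1.42 ± 0.25, likewise a description.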

How the data were processed

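Total RNA of each left ventricle was labelled by whole transcript kits and hybridised to 1-colour arrays, per the labels. The authors deposited 1 intensity per probe and array. Per the submitters' processing notes RMA was used, with no version given. RMA usually gives log2 values, but the deposited intensity values are linear (1.90 to 161122 in SD hearts), so log2 was taken, and the scaling step is unknown. Of 36685 probes, 14824 carry 1 gene symbol, 829 several and 21032 none. Levels in SD hearts, slopes, differences of slopes and spreads were computed with R 4.3.3, limma 3.58.1 (intensity trend, two-sided, Benjamini-Hochberg over all filtered genes), and exact permutations over 40320 orders (100000 permutations for the 12 treated dTGR arrays), in Python 3.11.15. Fits were tested on simulated data. The genes, lists and covariates were chosen with earlier results of these data known. Alb, Hbb-b1 and the liver list were added after the data were seen. Named genes were list members, the 25 brightest, the 30 of largest spread, the 5 steadiest among the brightest 10%, and the extremes of each slope (10 and 10 for Nppa in SD, otherwise 5 and 5). No batch is given in the labels. Alternatives changed the filter, normalization, probe choice, trend, covariate scale and arrays used.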

Additional observations from a re-analysis of the deposited data

Results flagged for a closer look

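RGD1309362 stood out because 1 SD heart lay far from the others. Its log2 intensity was 4.76 in SD replicate 4, and the other 7 SD hearts lay between 8.75 and 10.56, so the gap made up 0.689 of the range, above Dixon's 95% critical value for 8 samples. In vehicle dTGR hearts it ran from 8.57 to 10.05 and in treated dTGR hearts from 9.33 to 10.19. Among 73 genes checked this was the 1 that exceeded the value, and chance alone puts about 1 in 20 groups past it. That share holds for genes not picked by their spread. RGD1309362 was picked for its large spread in SD hearts, which came mostly from this heart, so the gap is a description and no test.

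Xirp2 stood out because its slope on Nppa differed between groups by a test of the difference. SD minus treated dTGR was -0.794 ± 0.131 log2 units per log2 unit of Nppa (limma, adjusted p = 0.0163). The call was lost in 3 of 16 alternatives. The Nppa ranges of both groups met only between 14.55 and 14.95, and the slope in treated dTGR hearts lost its call in 4 of 20 alternatives.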

How the results depend on the processing

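No paired analysis was possible because the animal numbers of the groups differ. Without the intensity trend, 0 genes passed for Nppa in SD hearts, 1 in treated dTGR hearts and 0 for the difference of these slopes, 6 passed for Alb in SD hearts, and 46 and 0 differed in spread from vehicle and treated dTGR. With ranks of the covariate, 0 passed for Nppa in SD hearts, 0 for the difference and 20 for Alb in treated dTGR hearts. Quantile normalization again gave 0 for the difference, robust moderation 0 and no filter 2 for spread against treated dTGR. Deviations from the mean gave 349 against vehicle dTGR and 18 against treated dTGR. With settings chosen after seeing the data, Nppa in SD hearts gave 4 without the 4 hearts of high Alb, 0 with Alb as second covariate and 0 without the 2 farthest hearts, and spread gave 18 against vehicle dTGR and 12 against treated dTGR without the 4. By median absolute deviation 108 genes passed a spread of 1. Leaving out 1 heart gave, in SD hearts, 0 to 1 for Nppa, 8 to 23 for Alb, 0 to 3 for Dbp, 0 to 1 for Upk3b and 0 to 2 for Hbb-b1. It gave 44 to 76 for spread against vehicle dTGR and 0 to 3 against treated dTGR. In vehicle dTGR hearts it gave 0 to 1 for Nppa, 0 to 2 for Alb and 2 to 451 for Hbb-b1, against 275 (2.39%) with all hearts, and in treated dTGR hearts 0 to 37 for Nppa, 7 to 13 for Alb and 0 to 1 for Dbp. The Thbs4 slope on Nppa turned to -0.069 and its r to -0.38 without the 2 farthest hearts. The cause was not tested. The Alb count in SD hearts was lowest without replicate 5 (8) or 6 (9). Signal over background is not in the files, so values near the filter level have no known detection limit.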

Other observations

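Interferon-stimulated genes, which cells switch on against viruses, also differed between SD hearts. The 14 measured members of 20 listed had a median standard deviation of 0.43, beside 0.25 over all genes. Of them 5 (Irf7, Isg15, Mx1, Oasl and Psmb8) exceeded 0.5, which is 35.7%, beside 13.2% of filtered genes. Irf7, the factor that amplifies the response, had 11.49 in replicate 1, 11.15 in replicate 4 and 10.73 in replicate 8, and 9.56 to 10.13 in the other hearts. Mx1, an antiviral GTPase, was highest in the same replicates 1 (10.51) and 4 (9.97), and lowest in replicate 2 (7.84). Outside the list, Oas2, which makes the activator of RNase L, was named for its large spread in SD hearts beside treated dTGR hearts. Its values were 8.52, 8.15 and 8.07 in replicates 1, 4 and 8 and 5.32 to 7.04 in the others. Since that spread chose the gene, they are a description only. The mean level of the list ran from 9.25 to 10.37 in SD hearts, from 8.69 to 9.70 in vehicle dTGR hearts and from 9.19 to 9.67 in treated dTGR hearts. Lymphocyte markers, beside it, had a median rank of 40.5, and their part was not tested. Fam111a was low in replicates 1 and 4 as well.

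Proliferation genes were among the lower ranks of the 7-week-old SD ventricle. The 17 measured cell cycle genes had a median rank of 44.2 and none exceeded the 90th percentile. The ribonucleotide reductase subunit Rrm2 varied most among them, with a standard deviation of 0.82. Immediate early genes had a median rank of 61.2 over 19 genes and a median standard deviation of 0.30. Fos lay between 6.13 and 7.13 in SD hearts, against 7.07 to 14.18 in vehicle dTGR hearts and 6.47 to 8.43 in treated dTGR hearts. Lipocalin 2 (Lcn2), a secreted iron-siderophore binder, lay between 7.33 and 10.65 in SD hearts, against 10.78 to 13.82 in vehicle dTGR hearts and 10.49 to 11.10 in treated dTGR hearts.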
